A study of Homo sapiens with 24 samples.

Results

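The features described here are 8 rows of a gene-level count table that belong to epithelial genes: CDH1, KRT8, KRT18, PRSS8, KRT19 and EPCAM under their own names, and ENSG00000260798 and ENSG00000261385, which lie on the strand opposite CDH1 and opposite PRSS8. They were taken by name from 61248 features, and all 8 were found in each of 24 libraries. The libraries were made from poly(A) RNA of the H7 line of human embryonic stem cells. BRAT1, a protein that binds the Integrator RNA cleavage complex, was knocked out (KO) in 2 lines, and 2 further lines served as controls. Every line was sampled at day 14, after differentiation to ventral neural progenitors, and at day 0 as undifferentiated stem cells, with biological replicates A, B and C. The groups are therefore day 14 BRAT1 KO, day 14 control, day 0 BRAT1 KO and day 0 control, each with n = 6 libraries from 2 lines, and the 3 replicates of each line entered the tests as separate samples. The labels do not say how the control lines were made. The 8 rows were chosen by name with the counts of these same libraries, between genotypes and days, already analysed, and which of those comparisons led to the choice is not recorded. Each p-value below therefore sets a difference against the spread between libraries and is not independent support for the choice.

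Epithelial cells are held together by E-cadherin, the product of CDH1, which binds its like on the neighbouring cell and is tied to actin through catenins. Keratin 8 (KRT8) and keratin 18 (KRT18) pair with each other to form the intermediate filaments of simple epithelia, and keratin 19 (KRT19) is another acidic keratin of simple epithelia. EPCAM is an epithelial adhesion molecule, and PRSS8 encodes prostasin, a membrane-anchored serine protease of epithelia that acts with matriptase and on the epithelial sodium channel. Human pluripotent stem cells grow as an epithelium with E-cadherin, EPCAM and keratins, and neural induction replaces E-cadherin with N-cadherin.

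The libraries held 2228736 to 3726227 counts at day 14 and 1407832 to 2143871 counts at day 0, with a count in 20769 to 25247 features and in 9299 to 15116 features at those days. Counts under a gene's name mostly followed the opposite strand. Of 1744 strand pairs, each a coding gene and an antisense gene whose exons overlap it, with at least 100 counts, 1186 (68.0%) had more counts under the antisense name. The BRAT1 row had 7.66 to 86.8 CPM (counts per 1000000 counts of the library) in day 14 KO libraries and 186 to 317 CPM in day 14 control libraries. At day 14 it held 21 to 63 counts in KO line 1 and 227 to 262 counts in KO line 2. Given the strand, this row may not show the level of BRAT1 RNA. At day 0 it had 0 to 10 counts in KO libraries and 0 to 6 counts in control libraries, too few to check the labels. The stem cell state was checked on the features opposite POU5F1 and TDGF1, named TCF19 and LRRC2. Their summed level was 482 to 779 CPM in day 0 KO libraries and 536 to 779 CPM in day 0 controls, but 0 to 1.88 CPM in day 14 KO libraries and 0 to 1.29 CPM in day 14 controls.

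The strand decides how the 8 names are read. Reads counted on the opposite strand fall, within shared bases, under the other name of a pair. In GENCODE release 29 on GRCh38, CDH1 lies on the plus strand of chromosome 16, 68737225 to 68835548, and ENSG00000260798, an antisense noncoding gene, lies on the minus strand at 68814330 to 68823526. Their exons share 347 bases. KRT8 lies on the minus strand of chromosome 12, 52897187 to 52949954, and KRT18 on the plus strand at 52948871 to 52952901. A long KRT8 transcript reaches back into KRT18, and the 2 genes share 525 exon bases. PRSS8 lies on the minus strand of chromosome 16, 31131433 to 31135762. All 357 exon bases of ENSG00000261385 (plus strand, 31131433 to 31131877) lie within PRSS8 exons, outside its coding sequence. KRT19 (minus strand, chromosome 17, 41523617 to 41528308) and EPCAM (plus strand, chromosome 2, 47345158 to 47387601) have no feature with at least 100 exon bases opposite. Opposite-strand reads of KRT19 and EPCAM therefore had no such feature to be counted under, and their own rows may not show the level of the genes. The release used for the deposited counts is not given in the sources used here, and a count does not show where in a feature its reads lie.

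The shared stretches are printed because the same genomic bases are counted under different names according to the strand read. The first pair below is a coding exon of CDH1 (GRCh38 chr16:68815515-68815759, plus strand) and the exon of ENSG00000260798 that falls inside it (chr16:68815576-68815659, minus strand). Capitals mark the 84 bases in common. The second pair is 30 coding bases of the first KRT18 exon and the same bases read as KRT8 (chr12:52949216-52949245, plus strand for KRT18 and minus strand for KRT8), with every base shared. The sequences are those of GENCODE release 29 transcripts and run 5′ to 3′.
CDH1: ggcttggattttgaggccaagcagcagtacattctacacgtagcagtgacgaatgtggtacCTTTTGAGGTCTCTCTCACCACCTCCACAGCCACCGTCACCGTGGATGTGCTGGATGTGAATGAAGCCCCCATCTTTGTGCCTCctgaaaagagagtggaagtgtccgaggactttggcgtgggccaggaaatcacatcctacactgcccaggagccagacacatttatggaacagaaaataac
ENSG00000260798: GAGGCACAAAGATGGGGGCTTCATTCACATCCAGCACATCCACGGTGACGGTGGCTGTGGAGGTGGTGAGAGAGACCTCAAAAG
KRT18: TCCCTGGGCTCTGTCCAGGCGCCCAGCTAC
KRT8: GTAGCTGGGCGCCTGGACAGAGCCCAGGGA

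**Figure D1:**
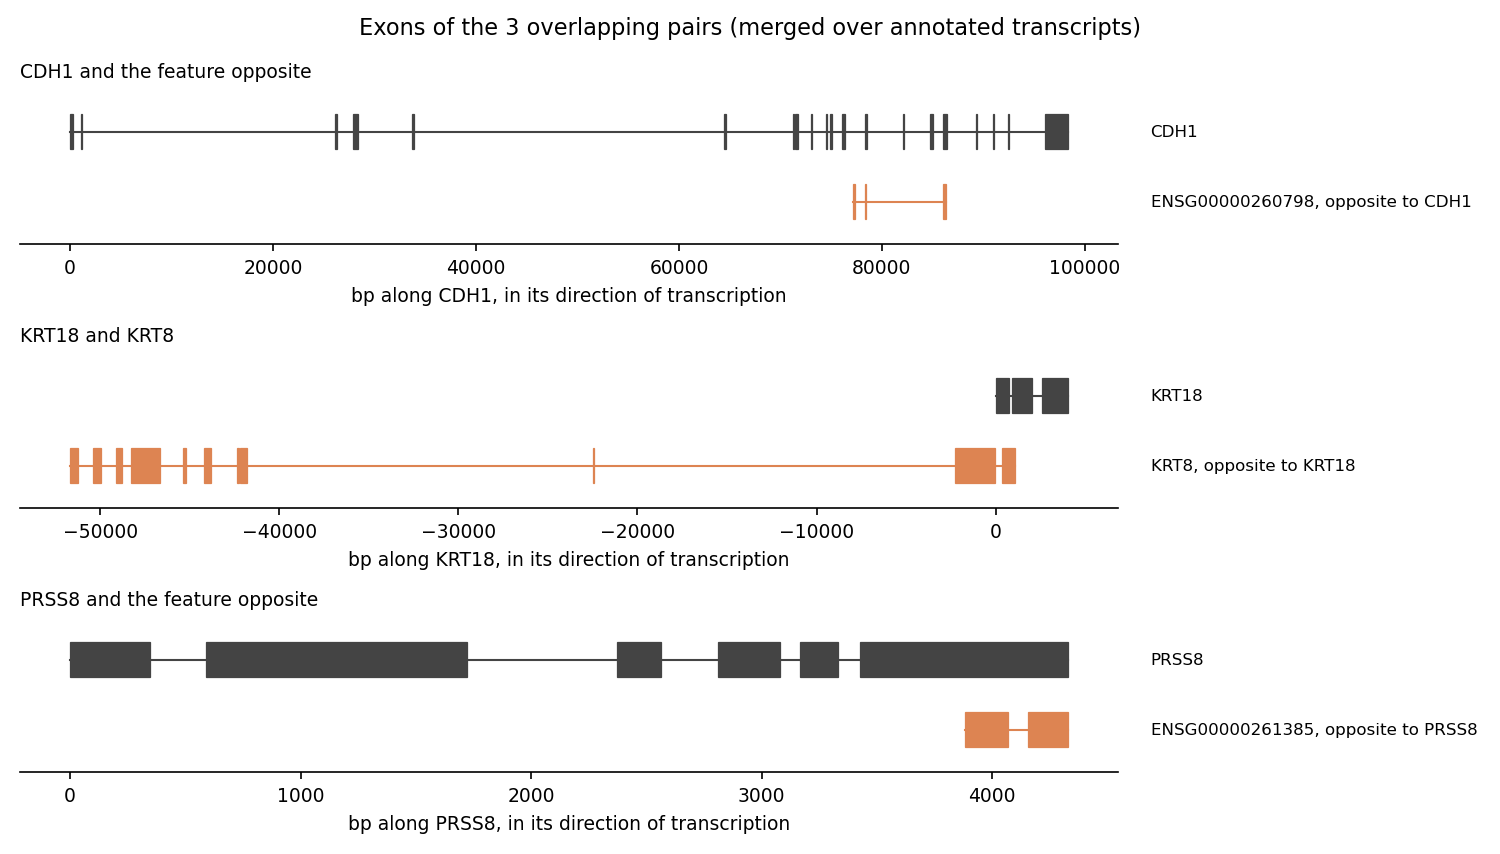
Exons of CDH1 with ENSG00000260798, KRT18 with KRT8, and PRSS8 with ENSG00000261385, as boxes merged over all annotated transcripts, against the distance in bp along the first gene in its direction of transcription. ENSG00000260798 sits in the 3′ part of CDH1, KRT8 overlaps the start of KRT18 and ENSG00000261385 covers the 3′ end of PRSS8.

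At day 14, the feature opposite CDH1 was almost absent from BRAT1 KO neural progenitors and present in every control library. ENSG00000260798 had 4, 0 and 1 counts in KO line 1 and 1, 1 and 2 counts in KO line 2. It had 77, 73 and 74 counts in control line 1 and 65, 72 and 49 counts in control line 2. No KO library came near a control library: the highest KO value was 1.49 CPM and the lowest control value 17.7 CPM. The means were 0.509 ± 0.521 CPM in KO and 21.4 ± 2.13 CPM in control (SD, n = 6 each). The log2 fold change was -5.34 (SE 0.47, 95% interval -6.30 to -4.38, edgeR adjusted p = 2.13e-09). The ratio of the summed counts, 9 in KO against 410 in control, gives a 43.4-fold lower CPM over the pooled libraries, with a 95% interval of 22.6 to 95.6 that covers counting error only. In bulk samples fewer cells of a type and less RNA per cell cannot be told apart.

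The row named after KRT8, the type II keratin of simple epithelia, was also lower in day 14 KO cells, by a smaller fold. It held 8, 26 and 65 counts in KO line 1 and 56, 40 and 55 counts in KO line 2. Control line 1 had 220, 217 and 137 counts and control line 2 had 226, 304 and 174 counts. The groups did not overlap, with 2.98 to 19.6 CPM in KO libraries and 44.2 to 89.5 CPM in control libraries. Mean levels were 13.3 ± 6.26 CPM in KO and 66.9 ± 15.7 CPM in control (SD, n = 6 each). The log2 fold change was -2.36 (SE 0.27, 95% interval -2.92 to -1.81, edgeR adjusted p = 3.08e-07). Replicate A of KO line 1 was the lowest of the 6 KO libraries, at 2.98 CPM. Because KRT8 and KRT18 share exon bases and counts mostly followed the opposite strand, the row may hold reads of either gene. How much of it comes from KRT18 was not tested.

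These 2 rows were the only members that passed the filter on low counts at day 14, and ENSG00000260798 passed it through the control libraries. Both were called lower at an adjusted p under 0.05. Of all 11408 features tested, 1218 (10.7%) were called lower and 1256 higher, with a median log2 fold change of 0.07, and in 684 (6%) every KO library lay below every control library in CPM. Since the 2 rows were chosen with such results known, nothing is read from their count against that background. Ranked from the most negative log2 fold change, ENSG00000260798 was number 8 and KRT8 number 131. Both calls held in all 24 alternatives, with adjusted p-values of 2.21e-05 for ENSG00000260798 and 0.000226 for KRT8 when counts were summed per line. The fold of ENSG00000260798 moved by over 1.5 times when replicate A of KO line 1, which holds 4 of its 9 KO counts, was left out (log2 fold change -5.98). The wrong-strand percent of a library, defined as the counts under coding genes per 100 counts under their much more abundant antisense partners, moved with genotype, at 2.93 ± 0.748 in KO and 2.03 ± 0.244 in control (SD, n = 6 each). With this percent as a covariate the log2 fold changes were -4.94 for ENSG00000260798 and -2.94 for KRT8, both called.

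The other members had too few counts at day 14 to be tested. KRT18, the type I partner of KRT8, had 6 counts in all KO libraries together and 28 in all control libraries, and KO line 1 had none. KRT19 had 5 counts in KO and 40 in control, with no count in 4 of 6 KO libraries and in 1 of 6 control libraries. EPCAM had 5 counts in KO and 19 in control, and was again at 0 in 4 of 6 KO libraries and 1 of 6 control libraries. ENSG00000261385, opposite PRSS8, had 3 counts in KO, all in replicate B of line 2, and 13 in control. The ranges of the groups overlapped for each of these rows.

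CDH1 under its own name had more counts in KO than in control libraries, most of them in 2 libraries. It had 0, 2 and 10 counts in KO line 1 and 0, 0 and 21 counts in KO line 2, against 2, 0 and 0 counts in control line 1 and 0, 1 and 0 counts in control line 2. The groups overlapped, and 2 KO libraries, replicate C of each line, held 31 of the 33 KO counts. Those libraries also had the highest wrong-strand percents of day 14, at 3.83 and 3.74. CDH1 was not tested at day 14, so no fit with this percent was made there; its fits over both days are given with the change over days. PRSS8 had 29 counts in KO and 18 in control, with replicate B of KO line 1 holding 17 of them. In a fit without the filter on low counts, none of the 6 low rows was called at day 14, with adjusted p-values from 0.141 for KRT19 to 0.743 for PRSS8. The ratio of the summed counts had a 95% interval that left out 1 for CDH1 (3.62 to 58.8, KO over control). As control over KO it left out 1 for KRT19 (3.01 to 24.8) and KRT18 (1.81 to 13.1). It did so too for EPCAM (1.31 to 12.4) and ENSG00000261385 (1.13 to 22.6). For PRSS8 the interval held 1 (0.908 to 3.23, KO over control). These intervals cover counting error only and leave out the spread between libraries.

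**Figure D2:**
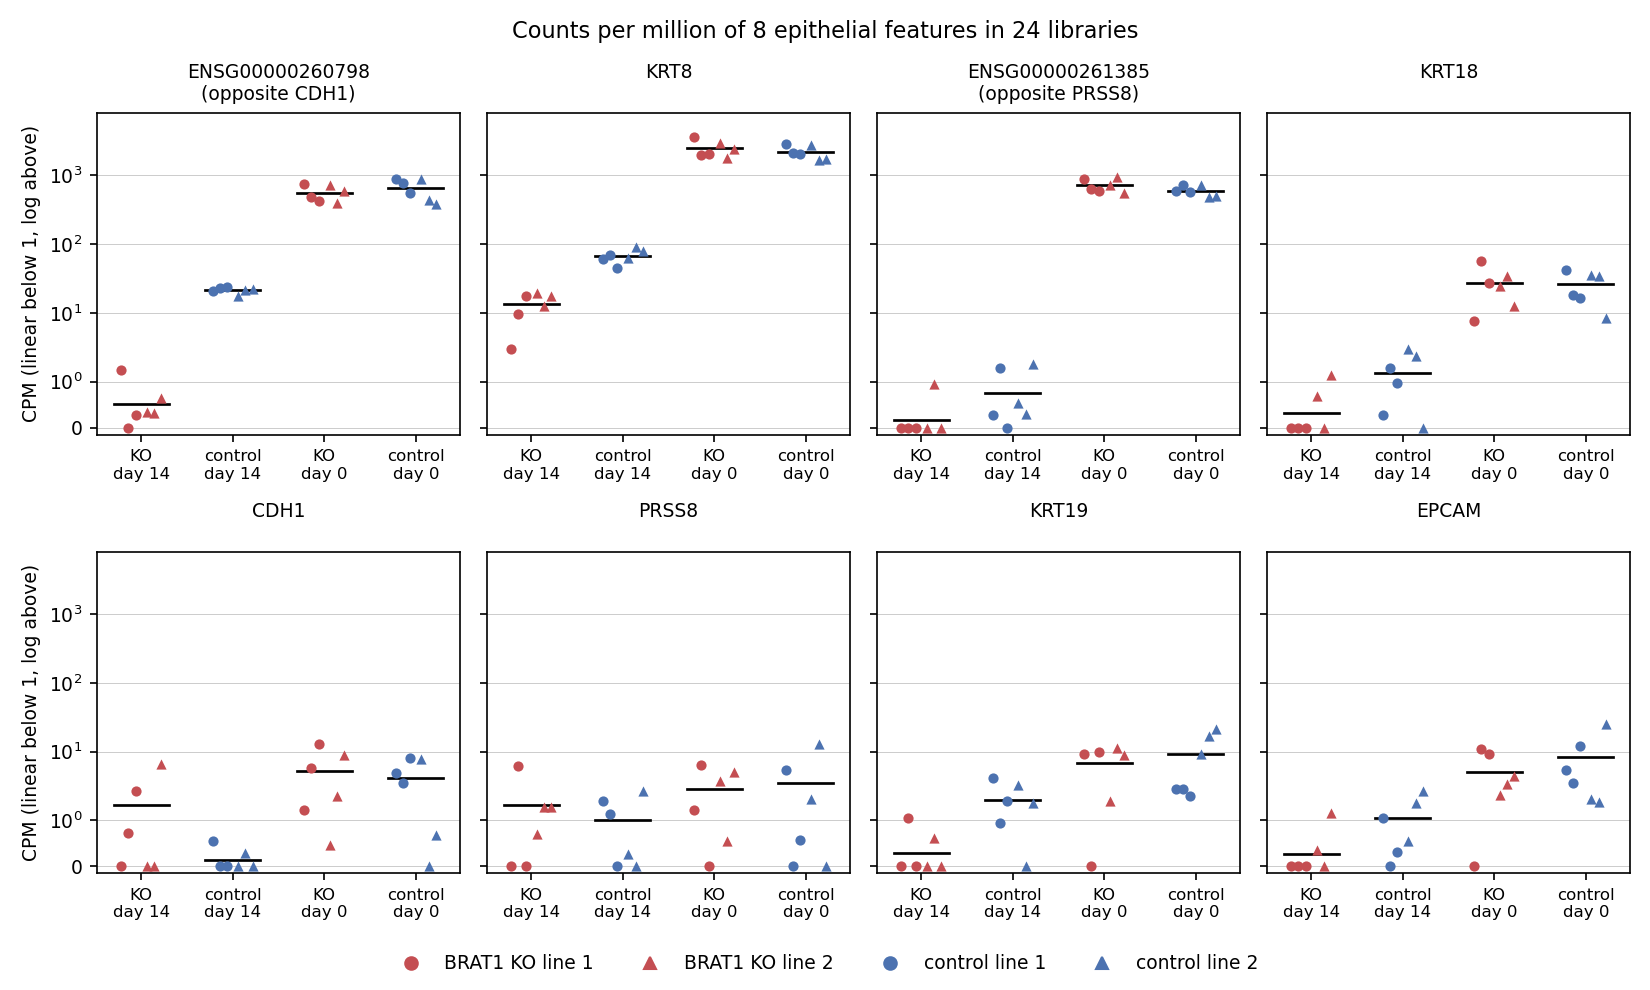
CPM of the 8 features in every library, on an axis that is linear below 1 and logarithmic above. Circles are line 1, triangles line 2, and the black bar is the mean of the 6 libraries. At day 14 the KO libraries lie below every control library for ENSG00000260798 (0 to 1.49 against 17.7 to 23.9 CPM) and KRT8 (2.98 to 19.6 against 44.2 to 89.5 CPM), and in the other panels the genotypes overlap.

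In stem cells at day 0 the ranges of the genotypes overlapped for all 8 features. ENSG00000260798 ranged from 393 to 743 CPM in KO (median 534) and from 384 to 883 CPM in control (median 660). KRT8 ranged from 1753 to 3608 CPM in KO (median 2237) and from 1682 to 2804 CPM in control (median 2058). ENSG00000261385 ranged from 554 to 953 CPM in KO (median 675) and from 479 to 718 CPM in control (median 587). KRT18 ranged from 7.72 to 57.4 CPM in KO and from 8.30 to 41.3 CPM in control.

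None of the 5 members tested at day 0 was called, nor was any of all 4832 features tested (0%, edgeR). At an unadjusted p under 0.05 there were 99 features, and DESeq2 called 0. The log2 fold changes of KO over control, with 95% intervals, were 0.14 (-0.31 to 0.60) for KRT8, -0.25 (-0.77 to 0.28) for ENSG00000260798 and 0.24 (-0.19 to 0.67) for ENSG00000261385. For these 3 rows the intervals leave out changes of 2-fold or more in either direction, with the replicates of a line taken as separate samples. The spread between lines is not in them. The log2 fold change of ENSG00000260798 was -0.46 without control line 2 and -0.0024 without control line 1. The intervals were wider for KRT18, at -1.17 to 1.26, and for KRT19, at -2.44 to 1.49, so changes of 2-fold are not left out there. CDH1, PRSS8 and EPCAM were not tested at day 0. They had 0.475 to 13.1, 0 to 6.31 and 0 to 10.9 CPM in KO libraries, against 0 to 8.01, 0 to 13.1 and 1.87 to 25.6 CPM in control libraries.

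In both genotypes ENSG00000260798, KRT8, ENSG00000261385, KRT18 and KRT19 were called lower at day 14, after neural differentiation, than at day 0. In KO lines, mean ENSG00000260798 was 0.509 CPM at day 14 and 558 CPM at day 0, so that 0.0913% was left. In control lines the means were 21.4 and 649 CPM, and 3.31% was left. For KRT8 the share left was 0.540% in KO (13.3 of 2455 CPM) and 3.07% in control (66.9 of 2182 CPM). ENSG00000261385, opposite the protease gene PRSS8, had the smallest share left in either genotype, 0.0217% in KO (0.157 of 722 CPM) and 0.125% in control (0.747 of 599 CPM). No day 14 library reached a day 0 library of its genotype for any of these 3 rows.

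The same contrast was fitted over all 24 libraries. In KO the log2 fold changes of day 14 over day 0 were -10.51 (SE 0.43) for ENSG00000260798, -8.07 (SE 0.34) for KRT8, -12.19 (SE 0.54) for ENSG00000261385, -6.69 (SE 0.92) for KRT18 and -4.84 (SE 1.09) for KRT19. In control they were -5.49 (SE 0.32), -5.59 (SE 0.31), -10.20 (SE 0.47), -4.75 (SE 0.81) and -2.61 (SE 0.94) for the same features in that order. Every one of these was called lower by edgeR, with adjusted p-values from 7.93e-19 to 0.000501 in KO and from 3.05e-17 to 0.0244 in control. ENSG00000261385, KRT18, KRT19 and CDH1 had too few counts to be tested at day 14, and passed the filter here through their day 0 libraries. For these rows a call as lower is not separate support for a fall, which rests on the counts. KRT19 in control was not called under 8 of 35 alternatives, among them the fit without control line 2 (log2 fold change -0.78, adjusted p = 0.698). The KRT19 level at day 0 was 9.24 to 21.4 CPM in control line 2 and 2.29 to 2.91 CPM in control line 1. The fitted values of ENSG00000261385 in KO rest on 3 counts at day 14 against 7722 at day 0, a 4377-fold lower pooled CPM with a 95% counting interval of 1497 to 21230.

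CDH1 under its own name was called lower at day 14 in control (log2 fold change -4.92, SE 1.21, edgeR adjusted p = 0.00152), but not in KO (-2.20, SE 1.01, adjusted p = 0.0746). It had 3 counts at day 14 and 45 at day 0 in control, and 33 and 59 in KO. Without control line 1 the control log2 fold change was -4.67 and was not called (adjusted p = 0.072). In KO the call was gained without replicate C of day 14 KO line 2 (log2 fold change -3.22, adjusted p = 0.0186), and with the wrong-strand percent in the model (-7.95, adjusted p = 0.0447, against -8.02 in control). That percent averaged 0.872 ± 0.0673 in KO and 0.817 ± 0.125 in control at day 0 (SD, n = 6 each), and its lowest day 14 values were 2.10 in KO and 1.61 in control. The days do not overlap in it, so the percent and the day cannot be told apart. In the same model KRT18 had -11.21 in KO and -7.18 in control, ENSG00000261385 -8.93 and -8.16, ENSG00000260798 -9.46 and -4.86, and KRT8 -9.24 and -6.23, all called lower, while KRT19 was not called in either genotype. EPCAM and PRSS8 did not pass the filter in this fit. The EPCAM row held 5 counts at day 14 and 57 at day 0 in KO, and 19 and 81 in control. In a fit without the filter it was lower at day 14 in both genotypes, with log2 fold changes of -4.49 in KO (adjusted p = 0.00124) and -3.32 in control (adjusted p = 0.0147). PRSS8 was not called there in KO (-1.25, adjusted p = 0.382) or in control (-2.20, adjusted p = 0.149).

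Of all 10971 features tested between days, 1812 (16.5%) were called lower and 3265 higher in KO, and 1584 (14.4%) were called lower and 3115 higher in control. The median log2 fold change of all features was 0.65 in KO and 0.60 in control, so a member's fall is larger by that much against the median feature. RLE scaling moved these medians up by 0.39 in KO and 0.23 in control, and gave 1405 lower and 4123 higher calls in KO. The members called lower kept their direction and call under that scaling.

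**Figure D3:**
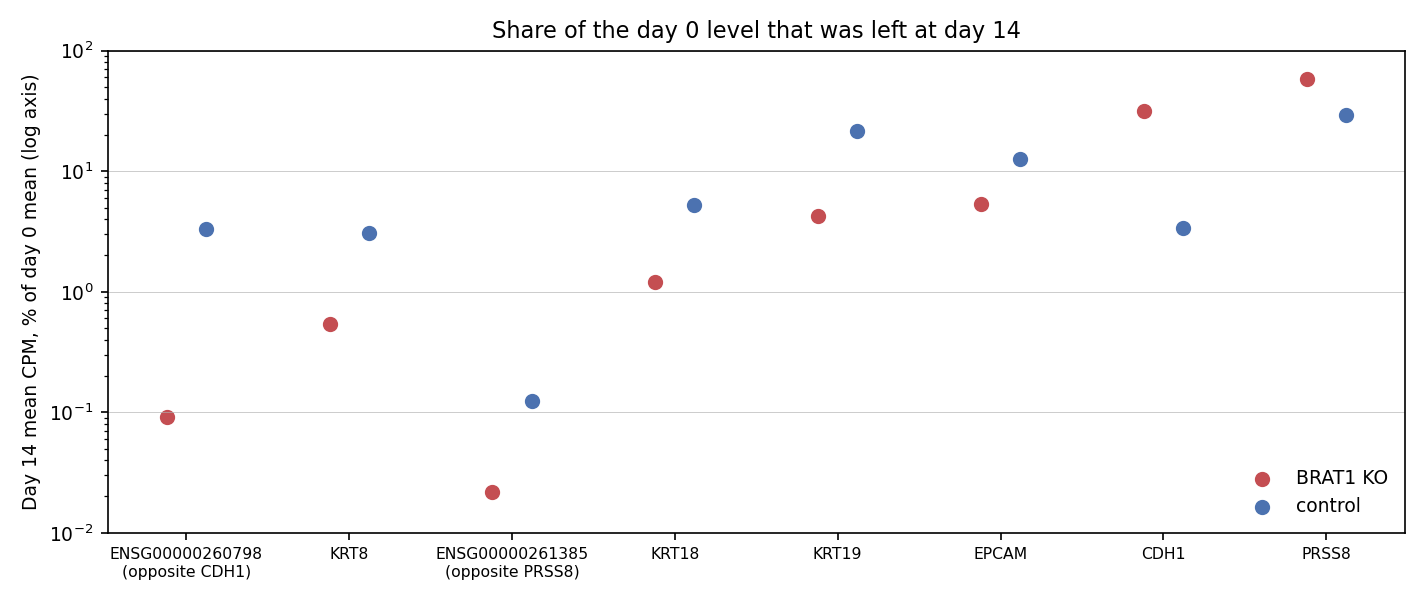
Mean CPM at day 14 as a percent of mean CPM at day 0 for the 8 features, on a log axis, with BRAT1 KO left of control at each feature. The percent is lower in KO for 6 features, by the widest margin for ENSG00000260798 (0.0913 against 3.31), and higher in KO for CDH1 (31.8 against 3.38) and PRSS8 (58.7 against 29.1). All but KRT8 rest on few day 14 counts in KO: CDH1 33, PRSS8 29, ENSG00000260798 9, KRT18 6, KRT19 5, EPCAM 5 and ENSG00000261385 3.

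The difference between genotypes in this change over days was itself tested. The interaction, positive where the change from day 0 to day 14 was more positive in KO, was -5.02 on the log2 scale for ENSG00000260798 (SE 0.48, edgeR adjusted p = 5.24e-08). For KRT8 it was -2.48 (SE 0.37, adjusted p = 0.000164). Both rows thus fell further in KO. The other 4 tested members were not called. Their log2 interactions, with 95% intervals, were -1.997 (-3.58 to -0.42) for ENSG00000261385, -1.94 (-4.10 to 0.23) for KRT18, -2.23 (-4.88 to 0.42) for KRT19 and 2.72 (-0.23 to 5.67) for CDH1, with adjusted p-values of 0.199 to 0.443. With the wrong-strand percent in the model the values were -0.77 for ENSG00000261385, -4.03 for KRT18, -1.38 for KRT19 and 0.0733 for CDH1, and none was called (adjusted p-values of 0.246 to 1). ENSG00000261385 was called without replicate B of day 14 KO line 2 (-3.92, adjusted p = 0.0205), the only KO library of day 14 with counts in that row.

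Across all features 161 of 10971 (1.47%) had a called interaction, 62 positive and 99 negative, and RLE scaling gave 76 positive and 70 negative. ENSG00000260798 and KRT8 were called in all 35 alternatives, with a highest adjusted p of 0.0495 for KRT8, reached without control line 2. The interaction shares its day 14 and day 0 libraries with the comparisons above, so it adds no separate evidence to them.

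**Figure D4:**
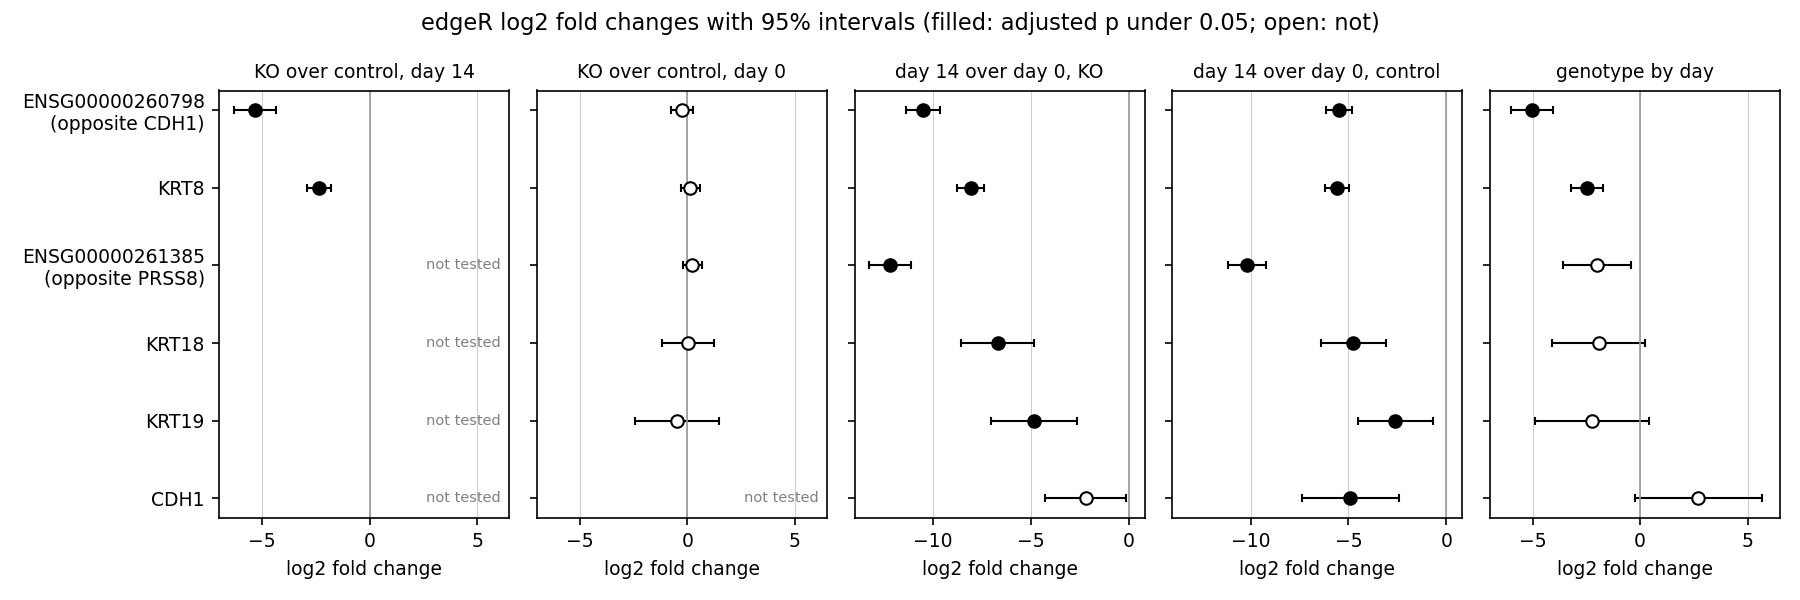
edgeR log2 fold changes of 6 features with 95% intervals in 5 comparisons, with filled points for an adjusted p under 0.05. EPCAM and PRSS8 passed the filter in none of them. KO over control is near 0 at day 0 for KRT8 (0.14) and at -2.36 at day 14, and every day 14 over day 0 value is below 0.

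Lines of the same genotype gave no called difference in the 2 rows tested. Between KO line 2 and KO line 1 at day 14, the log2 fold change was 0.69 for KRT8 (95% interval -0.03 to 1.41, edgeR adjusted p = 0.476) and -0.38 for ENSG00000260798 (-2.29 to 1.54, adjusted p = 0.946). Between control line 2 and control line 1 it was 0.40 for KRT8 (-0.25 to 1.04, adjusted p = 1) and -0.16 for ENSG00000260798 (-1.13 to 0.81, adjusted p = 1). Over all 15000 features tested, 184 (1.23%) differed between the KO lines and 16 (0.107%) between the control lines. KRT8 averaged 16.5 ± 3.62 CPM in KO line 2 and 9.97 ± 7.25 CPM in KO line 1 (SD, n = 3 each), against 76.4 ± 14.0 CPM in control line 2 and 57.4 ± 12.2 CPM in control line 1 (SD, n = 3 each).

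How counts divided between the names of a pair was compared as a description, since each pair had under 10 counts in at least 1 day 14 library and the planned test was not run. CDH1 held 33 of the 42 counts of its pair in day 14 KO libraries (78.6%, exact 95% interval 63.2 to 89.7) and 3 counts against 410 of ENSG00000260798 in day 14 controls (0.726%, 0.150 to 2.11). At day 0 it held 0.981% in KO and 0.656% in control. The 42 counts are mostly those of replicate C of each KO line. PRSS8 held 29 of 32 counts in day 14 KO libraries and 18 of 31 in day 14 controls, but 0.387% in KO and 0.598% in control at day 0, where ENSG00000261385 was abundant. KRT18 held 2.34% of the counts of its pair with KRT8 in day 14 KO libraries and 2.14% in day 14 controls, and 1.14% in KO and 1.20% in control at day 0. These intervals and shares cover counting error only, and the exon lengths behind them differ, at 6177 and 562 bases for CDH1 and ENSG00000260798.

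Genes that work with the members were taken from 8 lists of junction, keratin, protease and epithelial regulator genes and of the cadherins and factors of mesenchymal and neural cells. The lists hold 82 features under their own names, of which 26 were tested at day 14, and 24 opposite features, of which 13 were tested. Among the features under their own names 5 were called higher and 2 lower in KO, with a median log2 fold change of 0.19. Among the opposite features 2 were called higher and 2 lower, with a median of -0.27. Of all 11408 features tested, 1256 were called higher and 1218 (10.7%) lower, with a median of 0.07. The wrong-strand percent of day 14 libraries was higher in KO (2.93 ± 0.748) than in control (2.03 ± 0.244). No value of a list or marker feature below was taken from the fit with this percent as a covariate. Because counts mostly followed the opposite strand, a row under a gene's own name may not show the level of that gene. The lists were written with earlier results of these data known.

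Cadherins and catenins moved in both directions in day 14 KO cells. CDH3 (P-cadherin, another classical cadherin of epithelia) was lower, at 6.14 ± 4.46 CPM in KO and 18.0 ± 6.33 CPM in control (SD, n = 6 each, log2 fold change -1.56, edgeR adjusted p = 0.00785). CTNNB1 (beta-catenin, which binds the cadherin tail) was higher, at 46.8 ± 5.95 CPM in KO and 21.7 ± 3.28 CPM in control (log2 fold change 1.10, adjusted p = 0.000245). AFDN (afadin, the nectin adaptor) was higher as well, at 27.0 ± 9.03 CPM in KO and 10.9 ± 4.50 CPM in control (1.28, adjusted p = 0.00293). Of the 7 adherens junction features tested under their own names, 2 were called higher and 1 lower, and none of 3 opposite features was called.

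Of the desmosome list, both tested opposite features were called lower and neither of the 2 features tested under its own name was called. DSG2-AS1, opposite the desmosomal cadherin gene DSG2, had 8.62 ± 5.18 CPM in KO and 31.3 ± 3.30 CPM in control (log2 fold change -1.87, adjusted p = 0.000192). Its day 0 means were 328 CPM in KO and 365 CPM in control. PKP4-AS1, opposite the plakophilin gene PKP4, had 50.2 ± 12.1 CPM in KO and 128 ± 9.99 CPM in control (log2 fold change -1.37, adjusted p = 3.77e-07). DSP, the plakin that links desmosomes to keratin, was at 2.33 CPM in KO and 6.87 CPM in control and was not called (adjusted p = 0.0587).

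Among tight junction and polarity genes, 1 of 6 tested under their own names was called. TJP1 (ZO-1, a junction scaffold) was higher, at 89.6 ± 33.1 CPM in KO and 56.7 ± 14.2 CPM in control (log2 fold change 0.62, adjusted p = 0.0228). CLDN4, a claudin of epithelia, was not called (-0.71, adjusted p = 0.258). No feature was called among the 2 tested of the keratins and keratin linkers (PLEC 0.36 and KRT10 0.09 on the log2 scale), the 3 tested of the epithelial regulators (ELF3-AS1 -0.34, adjusted p = 0.0704, and OVOL1 -0.65, adjusted p = 0.388, had the smallest p-values) and the 1 tested of the EPCAM partners (CD24, -0.08). Of the 8 genes of the membrane-anchored protease pathway of prostasin and their 4 opposite features, none passed the filter at day 14.

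Of the cadherins of neural and mesenchymal cells, CDH11 and CDH2 were higher in day 14 KO libraries, and CDH6 had too few counts under its own name to be tested. CDH11 had 12.6 ± 5.24 CPM in KO and 2.62 ± 1.25 CPM in control (log2 fold change 2.24, adjusted p = 0.000612). CDH2, the N-cadherin gene, had 12.6 ± 5.33 CPM in KO and 5.14 ± 1.62 CPM in control (1.27, adjusted p = 0.0161). ENSG00000227279, opposite CDH2, had 81.9 ± 21.8 CPM in KO and 48.7 ± 9.996 CPM in control (0.73, adjusted p = 0.00422). ENSG00000254138, opposite CDH6, had 250 ± 95.8 CPM in KO and 151 ± 22.1 CPM in control (0.73, adjusted p = 0.0284). ZEB1, a transcriptional repressor of CDH1, was lower, at 34.6 ± 8.05 CPM in KO and 52.9 ± 12.5 CPM in control (-0.63, adjusted p = 0.0235). Under their own names 2 of 6 tested features of this list were called higher and 1 lower, and 2 of 5 opposite features were called higher. CDH3, DSP, ZEB1, CDH2, CDH6 and ENSG00000254138 here, and SOX10 and LIN28A among the markers below, do not have the 2 smallest p-values of their list and were named after their values were seen.

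**Figure D5:**
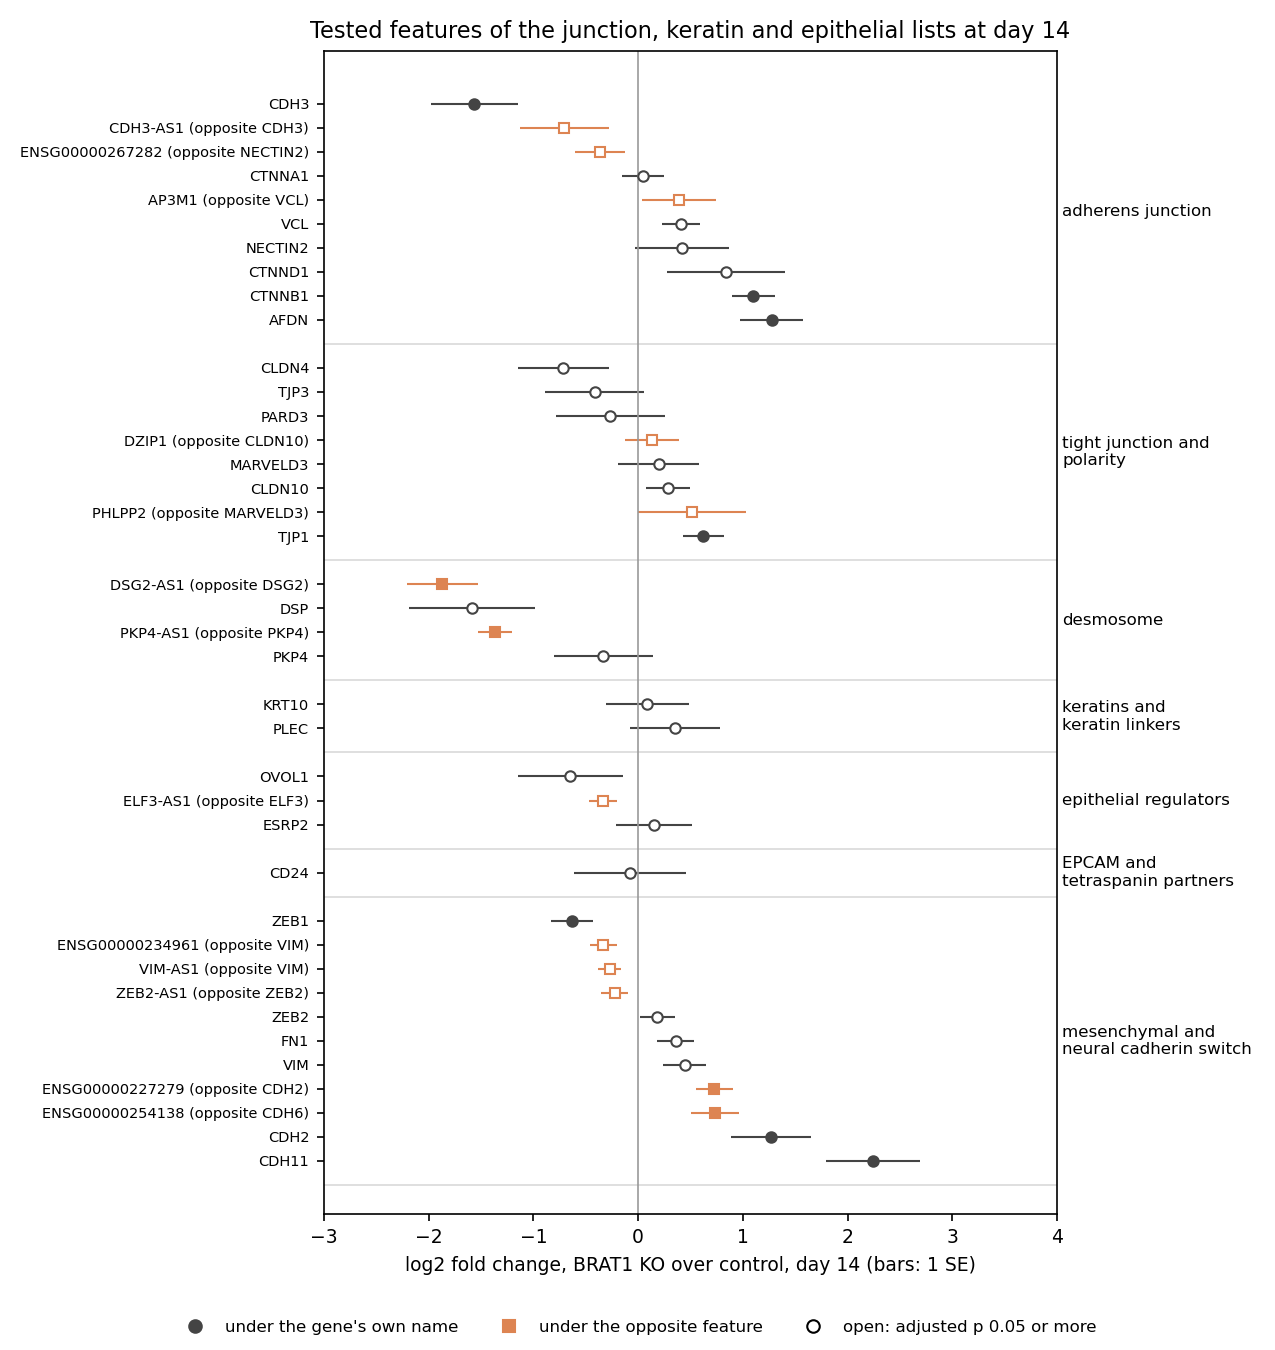
log2 fold changes of BRAT1 KO over control at day 14, with bars of 1 SE, for the tested features of 7 lists; the protease pathway had none. Circles are features under the gene's own name, squares are features opposite it, and filled symbols have an adjusted p under 0.05. Both opposite features of the desmosome list lie below 0 (-1.87 and -1.37), and CDH11 has the highest value (2.24).

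Over differentiation in control lines, the lists were read in the same way. Of the opposite features of all 8 lists, 10 of 18 tested were called lower at day 14 and 5 higher. All 5 called higher were opposite features of the mesenchymal and neural list, where 5 of 5 tested were called. Under their own names 8 were called higher and 5 lower of 28 tested. Of all 10971 features tested in control lines, 3115 were called higher and 1584 (14.4%) lower, so these counts are not read as a result about the lists. ENSG00000227279, opposite CDH2, had 48.7 CPM at day 14 and 6.34 CPM at day 0 in control lines.

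Rows of markers of cell types that a day 14 culture could hold also moved with genotype. Here too, rows under a marker's own name may not show the level of that gene. The 4 neural crest markers under their own names summed to 3.35 to 23.2 CPM in KO libraries and 60.6 to 95.1 CPM in control libraries. SOX10 and TFAP2B were called lower among 3 tested, and FOXD3-AS1, opposite FOXD3, was at 0 to 2.10 CPM in KO and 36.2 to 60.3 CPM in control. TFAP2B (0.464 CPM in KO and 10.4 CPM in control) and FOXD3-AS1 passed the filter through the control libraries, so their calls are not separate support. Of all 11408 features tested at day 14, 1256 were called higher and 1218 (10.7%) lower. The 8 neural progenitor markers under their own names summed to 441 to 731 CPM in KO and 177 to 299 CPM in control, and 5 of 6 tested were called higher, with SIX3 at 84.6 CPM in KO and 8.15 CPM in control and NES at 271 CPM in KO and 109 CPM in control. The 4 features opposite these markers went the other way in sum, at 23.0 to 156 CPM in KO and 125 to 198 CPM in control. Of those opposite features 3 were tested, with 1 called higher and 0 lower. Of 5 neuron markers, which summed to 65.8 to 197 CPM in KO and 20.2 to 55.9 CPM in control, 3 of 4 tested were called higher, DCX and MAP2 with the smallest p-values. The part of these shifts in the levels of ENSG00000260798 and KRT8 was not tested.

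Few markers of other epithelial types and of mesoderm had enough counts at day 14 to be tested under their own names: 1 of 6 for surface ectoderm, 2 of 7 for endoderm, 1 of 9 for trophoblast and amnion, and 0 of 4 for mesoderm. The 6 surface ectoderm markers summed to 11.2 to 39.4 CPM in KO and 7.87 to 23.2 CPM in control, the 1 tested was not called, and KRT5 was at 0 in every day 14 library. The 7 endoderm markers summed to 10.2 to 31.7 CPM in KO and 9.69 to 26.2 CPM in control, neither of the 2 tested was called, and SOX17 was at 0 in every library. The 9 trophoblast and amnion markers summed to 14.2 to 38.2 CPM in KO and 2.69 to 7.43 CPM in control, and the 1 tested, GATA2, was higher in KO (13.7 against 2.12 CPM). GATA2 passed the filter through the KO libraries, so its call is not separate support for a difference. The 4 mesoderm markers summed to 0 to 3.49 CPM in KO and 0 to 7.06 CPM in control. The 10 pluripotent stem cell markers under their own names summed to 75.9 to 161 CPM in KO and 66.9 to 137 CPM in control, most of it from LIN28A (57.3 CPM in KO and 61.8 CPM in control), and none of 6 tested was called. At day 0 the same rows summed to 46.3 to 286 CPM in KO and 102 to 230 CPM in control. The ranges of the days overlap, so these own-name sums did not separate stem cells from day 14 cells.

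The features whose day 14 pattern was most like a member's were sought among 6458 tested features with a mean of at least 10 CPM, by Pearson r of log2 CPM over the 12 libraries, which fall into the 2 genotypes. For KRT8 they were BRI3 (r = 0.99, 11.03 CPM in KO and 54.7 CPM in control), ENSG00000275038 (r = 0.98, 7.88 CPM in KO and 145 CPM in control) and OR7E101P (r = 0.97, 7.45 CPM in KO and 98.2 CPM in control). For ENSG00000260798 they were PHLDA1-AS1 (r = 0.98, 28.2 CPM in KO and 218 CPM in control), ENSG00000288079 (r = 0.97, 7.46 CPM in KO and 47.0 CPM in control) and ENSG00000264324 (r = 0.97, 18.8 CPM in KO and 131 CPM in control). All 6 had a lower mean in KO. PHLDA1-AS1 lies opposite PHLDA1 and ENSG00000264324 opposite MTHFD2. These r values describe 12 libraries of 4 lines, were not computed within a genotype and carry no test.

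Rows of processed keratin copies were looked at because keratin genes have many near-identical pseudogenes. The 51 rows named KRT8P held 327 counts in day 14 KO libraries and 486 in day 14 controls, and 422 and 411 in day 0 KO and day 0 control libraries. At day 14 these sums exceed the 250 counts of KRT8 itself in KO and stand below its 1278 in control. The 67 rows named KRT18P held 326 and 396 counts in day 14 KO and control libraries, and 276 and 28 in day 0 KO and day 0 control libraries. A single day 0 KO library held 240 of the 276, and the medians of the 6 libraries were 7.5 counts in KO and 4 counts in control. How the authors' counting divided reads between KRT8, KRT18 and these copies is uncertain.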

How the data were processed

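The deposited values are raw read counts per gene, made by the authors from Click-Seq libraries of poly(A) RNA. The submitters' processing notes name bcl2fastq 2.20.0, STAR 2.7.9a, GRCh38, featureCounts from Subread 2.0.1, DESeq2 1.34.0 and R 3.5.1. Neither the annotation release nor the strand setting is given in the sources used here. Names of 56943 of 61248 features were found in GENCODE release 29. CPM uses the total count of a library.

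Groups were compared with edgeR 4.0.16 quasi-likelihood tests (TMM, filterByExpr, robust) under R 4.3.3, on all features, with Benjamini-Hochberg adjusted p under 0.05 as the threshold: KO against control within each day, and days, interaction over all 24 libraries, and lines in a fit of the 12 day 14 libraries. Tests were checked on simulated counts. Members and lists were chosen with earlier results of these data known. The planned rule named the 2 tested features of each list with the smallest adjusted p at day 14. Others were named after their values were seen. Likeness used log2 TMM CPM with a prior count of 1. Replicates of a line differed beyond sampling noise (chi-square per degree of freedom of at least 5.46), so none was taken as a repeat of another and all were used. This does not make the libraries of a line independent. Sums per line gave 1664 calls at day 14 against 2474. Alternatives were DESeq2 1.42.0, RLE, no filter, a replicate block, sums per line, left-out libraries and lines, no features above 1 percent of counts, a wrong-strand covariate (antisense partner with at least 1000 counts and 10 times the coding gene), and other library sets.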

Additional observations from a re-analysis of the deposited data

Results flagged for a closer look

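In 3 of the 32 combinations of a member, day and genotype, 1 library stood apart from the other 5 of its group. The rule flags about 1 in 20 groups by chance when values are normally distributed. That rate does not hold for rows with a few counts or mostly 0, as the 3 below are. PRSS8 was at 6.20 CPM in replicate B of day 14 KO line 1, from 17 counts, and the next highest of the 6 KO libraries held 5 counts. ENSG00000261385 was at 0.941 CPM in replicate B of day 14 KO line 2, from 3 counts, where the other 5 KO libraries had none. EPCAM was at 1.27 CPM in replicate C of day 14 KO line 2, from 4 counts, where the others had 0 or 1.

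For 2 members the change over days differed between genotypes by the test of the difference itself. The log2 interaction was -5.02 for ENSG00000260798 and -2.48 for KRT8, so both stood lower in day 14 KO cells than the change in control lines would give.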

How the results depend on the processing

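ENSG00000260798 and KRT8 were called lower in day 14 KO cells under all 24 alternatives, with log2 fold changes of -5.98 to -4.94 and -2.94 to -2.10. Counts of all called features moved more. At day 14 there were 2474, against 1552 without control line 1, 1266 without control line 2, 1481 with the wrong-strand covariate and 241 in the fit of all 24 libraries. At day 0 there were 0, against 13 without the filter, 1 with counts summed per line, 1 on dropping control line 1 and 116 in the fit of all 24 libraries. Day 14 against day 0 gave 5077 in KO, 8739 without the filter and 1139 with the covariate; in control it gave 4699, 2926 without control line 2 and 2170 with the covariate. The interaction gave 161, against 502 by DESeq2, 792 without the filter, 28 with sums per line, 38 with the covariate, 23 and 58 without KO lines 1 and 2, and 40 and 16 without control lines 1 and 2. Line 2 against line 1 gave 184 in KO (358 by DESeq2) and 16 in control (42 without the filter). The cause of these moves was not tested, beyond the fewer or more libraries or features in a fit.

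Leaving out 1 library at a time gave 2113 to 2551 calls at day 14, 0 at day 0, 4874 to 5680 between days in KO, 4558 to 5240 in control, 91 to 259 for the interaction, and 109 to 289 and 10 to 25 for the KO and control lines. At day 0, where no member was called, KRT18 changed sign without KO line 1 (-0.15), with the covariate (-0.16) and in 5 leave-one-out fits (-0.34 to 0.25 over all), KRT19 without control line 2 (1.26) and KRT8 without replicate A of KO line 1 (-0.0159, to 0.25 over all left-out libraries). ENSG00000260798 between KO lines changed sign without replicate A of line 1 (1.33, and -0.88 without replicate B). KRT19 between days was not called with the covariate in KO (-2.38) or control (-1.002).

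The labels do not say that the letters A to C pair libraries. Same-letter deviations correlated above 0.1 in 1 of 18 pairs at day 14. At day 0 they did in 11 of 18, with r of 0.0664 to 0.273, and all 36 different-letter pairs had a lower r, of -0.176 to 0.0181. This is a hint from the data of a shared factor at day 0. With a replicate block KRT8 gave -2.38 and ENSG00000260798 -5.36 at day 14, and CDH1 between days in KO became called (-2.54, edgeR adjusted p = 0.0379). The block changed no other call of a member. The balance within pairs had no test, so its alternatives gave no value. Counting error alone gave PRSS8 a day 14 ratio of KO over control of 0.908 to 3.23 (95% interval), so no direction was detectable for it.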

Other observations

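At day 0, replicate A had the highest CPM of its line for KRT8 and for ENSG00000260798 in 4 of 4 lines. KRT8 stood at 2751 to 3608 CPM in the 4 replicates A and at 1682 to 2433 CPM in the 8 other day 0 libraries. ENSG00000260798 stood at 723 to 883 CPM in replicates A and at 384 to 764 CPM in the others. ENSG00000261385 was highest in replicate A in 2 of 4 lines. No label says that a letter marks a shared day or batch.

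Some features of the prostasin pathway and of tight junctions, picked after their values were seen, were lower at day 14 than at day 0 in both genotypes. SPINT1, an inhibitor of matriptase, had 0.983 CPM at day 14 and 97.6 CPM at day 0 in KO, and 0.411 and 96.3 CPM in control. LTBR, opposite the sodium channel subunit gene SCNN1A, had 0.496 CPM at day 14 and 851 CPM at day 0 in KO, and 2.45 and 707 CPM in control. CLDN6, a claudin of early epithelia, was at 0 at day 14 in every library, with 15.4 CPM at day 0 in KO and 10.2 CPM in control. The interaction of genotype and day was not called for SPINT1 (edgeR adjusted p = 0.653) or LTBR (adjusted p = 0.0822), and could not be estimated for CLDN6. Other tight junction features differed in direction. In control lines 1 of the 8 tested under their own names was called higher at day 14 and 2 lower, and both opposite features were called lower. Of all 10971 features tested in control lines, 3115 were called higher and 1584 (14.4%) lower. TJP1 was called higher at day 14 in both genotypes, with log2 fold changes of 3.33 in KO and 2.49 in control.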
